A study of Mus musculus with 2 samples.

Results

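Antisense-type noncoding genes are transcripts that the annotation types as antisense, most of them on the strand opposite to a coding gene, and 106 of them gave piRNA-size reads in deposited small RNA tables of mouse testis. The members were the GENCODE M21 genes of type antisense with at least 200 reads of 24 to 32 nt summed over both tables, without Gm10069 and Gm15564, which the selection rule left out. AA474408, which the rule also names, has another type in this annotation (TEC, to be experimentally checked) and could not be a member. Of 2959 annotated antisense-type genes, 1796 had at least 1 exact match and 108 reached the minimum, among 4552 genes of all types that did. The members were chosen by their reads of 24 to 32 nt summed over both tables, so their read numbers are a description. Just inside the minimum were Gm9750 with 205.1 reads, Gm16279 with 202.2 and Gm42493 with 201, and just outside were Dnm3os with 196.5, A630072M18Rik with 190.7 and Alkbh3os1 with 190.0.

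The study sequenced small RNA of testes at 23 dpp (days postpartum) on the C57BL/6 background, with 1 sample of the genotype Stambp-ps1+/- and 1 of Stambp-ps1-/-. Its locus of interest, Stambp-ps1, is a pseudogene copied from Stambp, whose product removes ubiquitin from cargo on endosomes. Total RNA was extracted with Trizol, 20 µg of it was run on a 15% gel, and RNA of 15 to 40 nt went into directional TruSeq Small RNA libraries, so that the strand of each read is known. GEO lists both deposited tables under the Stambp-ps1-/- sample although their names carry the words KO and het. Each table is called by that word, KO-named or het-named, and no genotype was assigned to either. The labels do not say how the allele was made or whether animals were pooled.

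piRNAs are germ cell small RNAs that lead PIWI proteins to matching transcripts, and in mouse testis before and during meiosis most of them are cut from long single-stranded transcripts, many of them noncoding. Most begin with U, and those bound by PIWIL1 are longer than those bound by PIWIL2. When a PIWI protein cuts a transcript that pairs with its piRNA, the cut can start a new piRNA on the other strand whose first 10 bases pair with those of the guide, and this cycle is called ping-pong.

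The reads that carried the results below are shown 5′ to 3′ as the tables give them, with T for U, positions on GRCm38, and the first base in capitals because most piRNAs begin with U. The first 6 come from members whose reads had 1 place among the annotated transcripts and lay on the member's own strand, the next 3 from members whose reads lay on the opposite strand, and the last 2 from members whose reads did not begin with U.
Gm14244 (chr2:127691914-127691939, + strand): Tagcatagtacttaagaggcttgggc
Gm21284 (chr6:83585906-83585935, + strand): Ttacatggatttagcctatggtgagcagcc
4932702P03Rik (chr13:24906402-24906430, + strand): Tattgaggtagtacttgaagcccacagcc
Gm11657 (chr11:107994536-107994565, + strand): Taggacggaggttgttgcctaaaattggga
Gm49774 (chr17:27553667-27553691, - strand): Tacatactgagttccaggacagcct
1700082M22Rik (chr8:104653189-104653217, + strand): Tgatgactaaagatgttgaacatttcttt
Gm44170, antisense (chr6:88504070-88504095, - strand): Tagggactcttgctgctatgcttgcc
Gm26588, antisense (chr6:88725792-88725821, + strand): Tgcagacggacagtacctcttttgtagata
Gm15579, antisense (chr7:143601086-143601112, - strand): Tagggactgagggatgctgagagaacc
Gm33023 (chr8:104636449-104636478, + strand): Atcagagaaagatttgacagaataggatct
Gm12395 (chr4:42736754-42736783, + strand): Gcaacagaaaagagacctagatacctgcct
The Gm21284 read was the most abundant 1-place sequence over all members, at 4614 reads (KO-named) and 4604 (het-named). The Gm12395 read is the second most abundant of that gene, and each of the others is the most abundant of its gene.

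The tables held 54384974 and 62773871 reads of 18 to 32 nt, KO-named before het-named here and throughout. Small RNA markers of testis were present. The 4 miRNA genes listed for germ cells of meiosis and later summed to 6368 and 4700 RPM (reads for every 1000000 in a table). Most of this was Mir34c, at 5482 and 3963 RPM, and Mir184 alone was lower in the KO-named table, at 79.8 and 103.1 RPM. The 5 testis X-linked miRNA genes summed to 17071 and 16553 RPM. The Sertoli marker Mir202 stood at 97.2 and 100.03 RPM. The 3 blood miRNA genes summed to 63.7 and 43.1 RPM and liver Mir122 had 0 reads, while the muscle genes summed to 10.8 and 6.54 RPM and the brain genes to 9.28 and 6.87. With 1 library per table there was no replicate and no test. Ratios below are KO-named over het-named with their 95% intervals, which cover counting error only, since PCR copies of a molecule were not marked. In a bulk sample, fewer cells of a type and less RNA per cell cannot be told apart.

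Together the members held 154948 reads (KO-named) and 157999.8 (het-named), which is 2849 and 2517 RPM. Their summed ratio was 1.13 (1.12 to 1.14). Of the 106 members 98 had a log2 ratio above 0, where 86.5% of all 4552 genes did, and 8 lay below 0, where 13.5% of all genes did. The median log2 ratio was 0.21 over the members, 0.20 over all genes, 0.17 over the 238 lincRNA genes (long intergenic noncoding) with at least 200 reads and 0.21 over 3384 coding genes. The members' ratios were thus centred where those of genes in general were. No member reached a log2 ratio of 1 in size, against 0.351% of all genes, 0.022% higher and 0.33% lower in the KO-named table. The members ranged from -0.75 to 0.69. The interval lay above a ratio of 1 for 51 members, where it did for 41.7% of all genes, and below it for 1, Gm15579, where it did for 1.74% of all genes. With reads of 1 place alone, 100 members had reads and 8 of them passed a log2 ratio of 1 in size. The share of all genes past 1 was not counted at this setting, so the 8 have no background beside them. In 33 members at most 10% of reads had 1 place, so such ratios can rest on few reads. The sign of these values depended on the scaling: per read on annotated miRNA hairpins, the members' median was -0.04 beside -0.05 over all genes, and 40 members lay above 0.

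**Figure D1:**
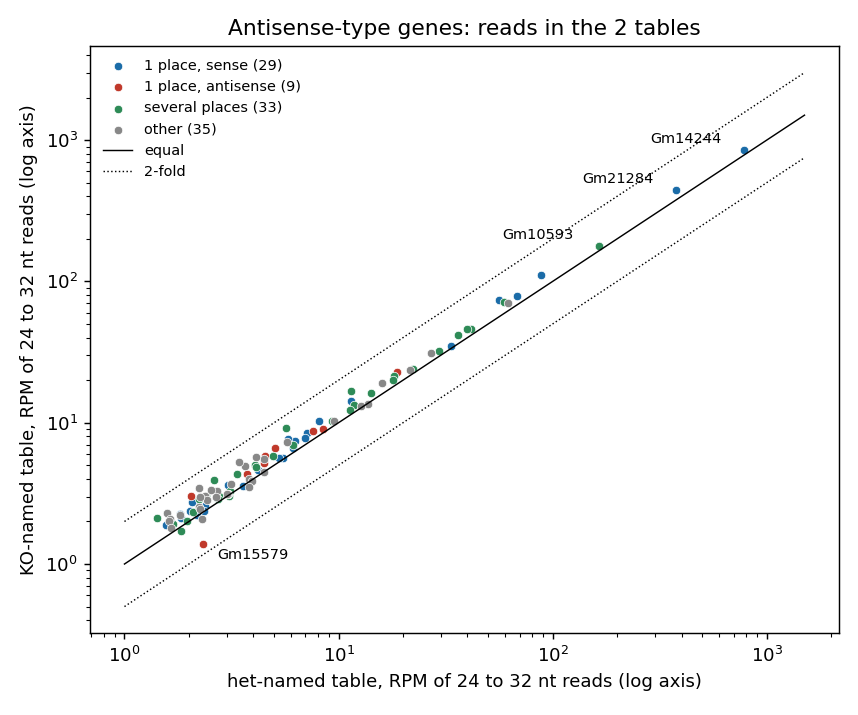
Reads of 24 to 32 nt per 1000000 reads of the table (RPM) for each of the 106 antisense-type genes, het-named table on the horizontal and KO-named table on the vertical log axis, coloured by the groups described in the text. All points lie within the dotted 2-fold lines, from Gm14244 at 853 and 785 RPM to genes near 2 RPM, and Gm15579 lies farthest below the line of equality.

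A few members held most of the reads. Gm14244 alone had 30.6% of the members' reads and the top 3 had 52.3%, while the median member had 506 reads in both tables together. On the sense strand of the members lay 82.3% of reads (KO-named) and 82.8% (het-named), but the median member had 55.8% of its reads there. The corresponding medians were 97.8% over all genes and 89.5% over lincRNA genes. At least 90% of reads were sense in 36 members (34.0%, against 67.3% of all genes and 49.16% of lincRNA genes). At most 10% were sense in 19 members (17.9%, against 5.51% of all genes and 15.97% of lincRNA genes). The first base was U in 81.4% and 81.1% of reads, and the share was at least 70% in 86 members and under 50% in 7. How many of all genes met these limits was not counted. The median member had 82.8% first U, close to the medians of 80.3% over all genes and 83.2% over lincRNA genes. Reads of 29 to 31 nt made up 56.2% and 57.1%, and the most frequent length was 30 nt, at 26.7% of reads in both tables. In the median member 45.4% of reads were 29 to 31 nt, beside 34.0% over all genes and 50.3% over lincRNA genes.

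The members were sorted into 4 groups after their values were seen, by strand and by whether their reads had 1 place. Of these, 29 genes had at least 90% of reads with 1 place and at least 90% sense, and 9 had at least 90% with 1 place and at most 10% sense. In 33 genes (31.1%, against 15.7% of all genes and 38.2% of lincRNA genes) at most 10% of reads had 1 place. The remaining 35 genes met none of these rules. The first group held 59.9% of the members' reads, the second 2.31%, the third 28% and the last 9.74%. Median log2 ratios were 0.23, 0.22, 0.19 and 0.21 in that order, so the groups differed little between the tables.

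**Figure D2:**
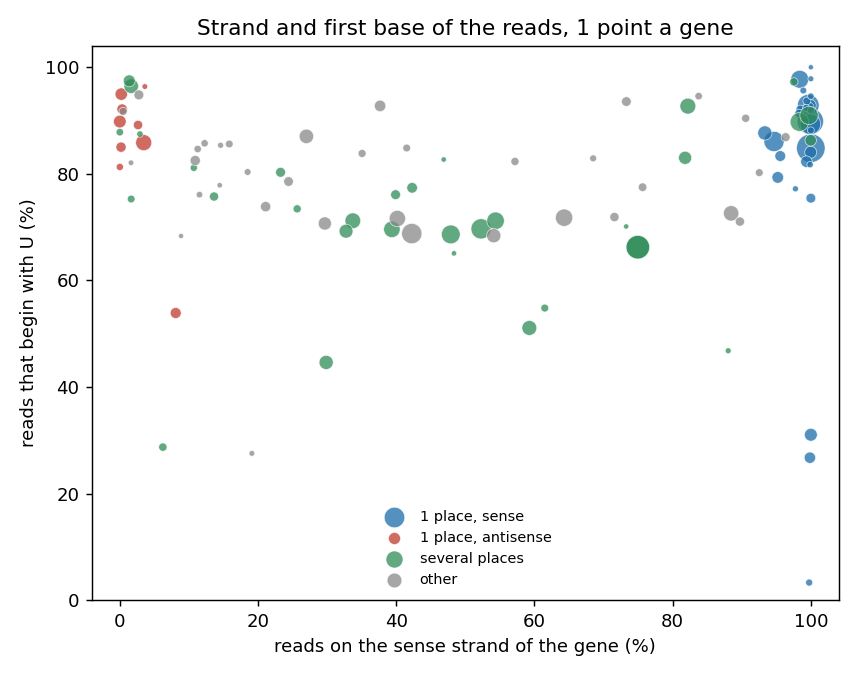
Share of reads on the gene's own strand (horizontal) and share of reads that begin with U (vertical) for each of the 106 genes, both tables summed, with larger points for more reads and colours for the 4 groups. Most points lie above 70% first U at every sense share, and 7 genes lie under 50%, among them Gm33023 at 3.32% and Gm12395 at 26.7%.

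The 29 genes with sense reads of 1 place gave reads almost wholly from a single strand, as the rule of their group required. Their reads were 99.6% sense in both tables, began with U in 86.8% and 86.4%, and were 29 to 31 nt long in 57.8% and 58.0%. Their log2 ratios ran from -0.00 to 0.44. Per kb of exon, Gm14244 stood highest at 354 and 326 RPM, followed by Gm11657 at 233 and 203 and Gm21284 at 119 and 101. The next members of the group, 4932702P03Rik and Rab26os, stood at 24.4 and 20.5 RPM per kb in the KO-named table.

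Gm14244 (ENSMUSG00000087162.1, chr2:127691899-127700488, + strand, 5 exons, 2410 exon bases) gave 46380 reads (KO-named) and 49306 (het-named). Scaled to depth, that is 853 and 785 RPM with a ratio of 1.09 (1.07 to 1.10), the KO-named value being slightly higher. Although its type is antisense, no coding gene overlapped it on the other strand or started within 2000 bases of its start. Its reads were spread along the spliced transcript over 1203 start positions, of which the leading one gave 4.99% of reads, and 39.5% of the reads started in the first 25% of the transcript. They began with U in 84.8%, with 38.8% of 26 to 28 nt and 50.5% of 29 to 31 nt. The most abundant sequence, shown above, had 1779 and 1929 reads.

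Gm21284 (ENSMUSG00000108660.1, chr6:83568039-83588123, + strand, 3736 exon bases) lies opposite Stambp, the parent gene of the pseudogene under study, and shares 136 exon bases with it. It gave 24210 and 23750 reads, or 445 and 378 RPM, with a ratio of 1.18 (1.16 to 1.20). None of these reads lay in the exons or in the span of Stambp, so the part of Gm21284 that overlaps Stambp gave no reads while the rest gave them on the Gm21284 strand. Stambp had its own sense reads, 344 (KO-named) and 509 (het-named), a log2 ratio of -0.36. The reads of Gm21284 were concentrated: 34.2% of those with 1 place began at a single position, and the 10 leading positions gave 58.6%. Of its reads 89.8% began with U and 76.9% were 29 to 31 nt long, with 41.8% at 30 nt in both tables.

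4932702P03Rik (chr13:24905593-24914272, + strand) lies opposite Aldh5a1, which encodes succinate-semialdehyde dehydrogenase, and shares 796 exon bases with it. It had 6046 and 5513 reads, a ratio of 1.27 (1.22 to 1.31), with 92.9% first U. Aldh5a1 itself had 13 and 15 sense reads. Gm11657 (chr11:107994022-107994631, + strand) is a gene of 337 exon bases inside the span of Prkca, which encodes a protein kinase C, without touching its exons. It had 4270 and 4289 reads, a ratio of 1.15 (1.10 to 1.20), where Prkca had 38 and 51 sense reads over its whole mRNA. In this short transcript 30.6% of reads came from 1 start and 81.2% from 10 starts.

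Gm49774 (chr17:27545707-27556518, - strand), opposite the chromatin protein gene Hmga1, differed in length. Its 4004 and 3516 reads peaked at 27 nt, with 55.4% of 26 to 28 nt and 19.3% of 29 to 31 nt, where the other leading members of the group peaked at 29 or 30 nt. The ratio was 1.31 (1.26 to 1.38). Its first U share was 86.1%, and its leading start gave 6.67% of reads over a single exon of 10812 bases. Tug1, a conserved noncoding RNA, had the same short lengths at a lower level, with 415 and 364 reads of which 56.9% were 26 to 28 nt, and a ratio of 1.32 (1.14 to 1.52).

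1700082M22Rik (chr8:104641807-104658558, + strand) gave reads mostly from 1 start. Of its reads with 1 place 96.0% began at chr8 position 104653189, the start of the read shown above, which alone had 941 and 970 reads. A form of 30 nt, longer by 1 nt, had 722 and 854 reads. The gene had 1912 and 2098 reads in all, with a ratio of 1.05 (0.99 to 1.12), and 89.9% of them were 29 to 31 nt long. Its coding neighbour Ciao2b, of the iron-sulfur assembly pathway, had 23 sense reads in each table. Gm42493, just inside the read minimum, was of the same kind with 79.6% of its reads at 1 start. Across the 29 genes the leading start held a median of 26.4% of reads, with Gm14244 the lowest at 4.99%.

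**Figure D3:**
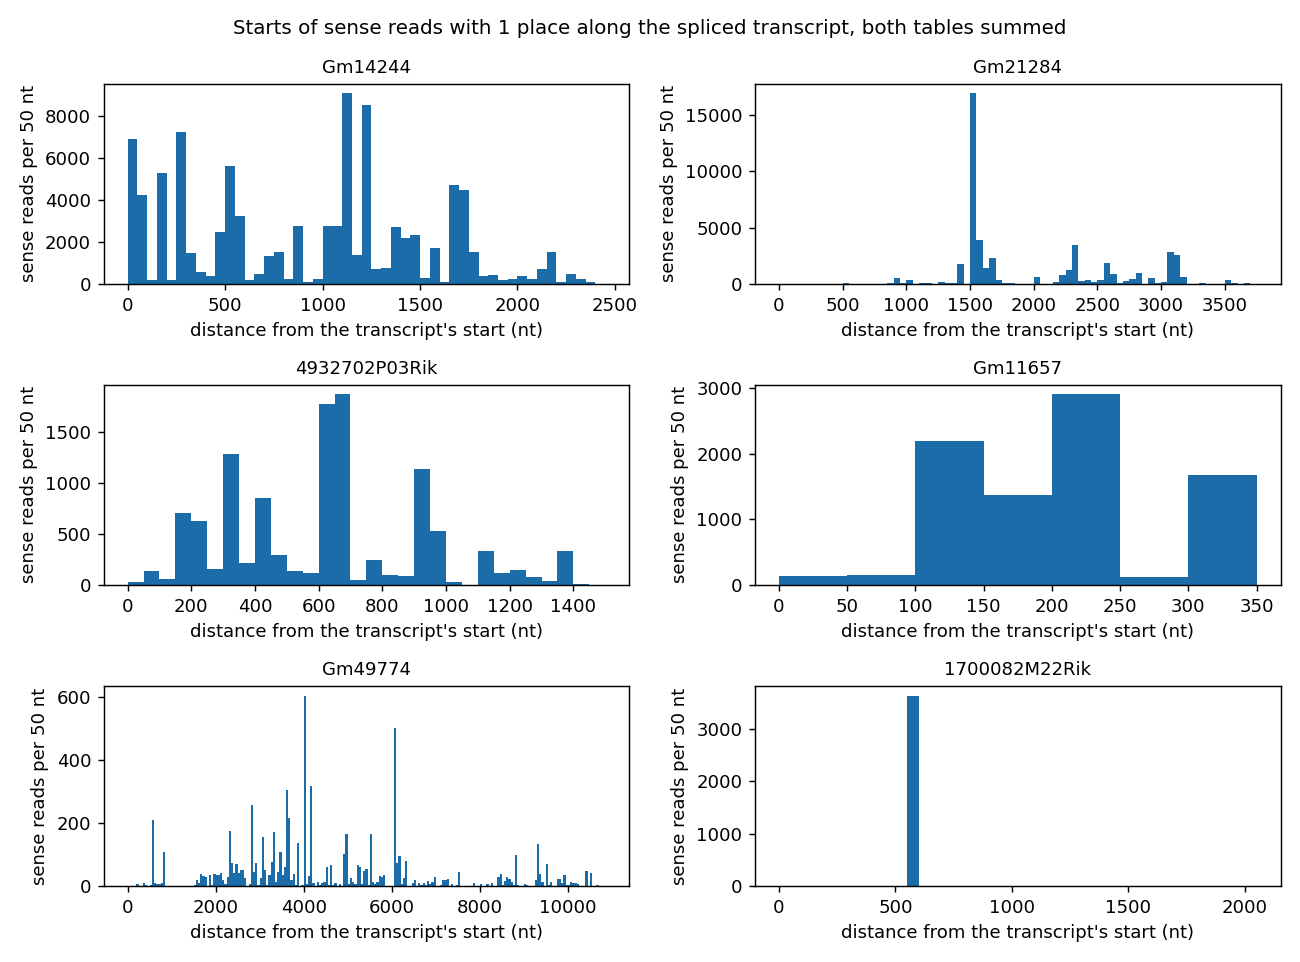
Starts of sense reads with 1 place along the spliced transcript (horizontal, nt from its start) as reads per 50 nt (vertical) in 6 genes, both tables summed. Gm14244 and Gm49774 give reads along most of their length, with 4.99% and 6.67% of reads at the leading start, whereas Gm21284 has 34.2% and 1700082M22Rik 96.0% at a single start.

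The base after a read's end and the distance to the next read were examined in the same 29 genes. piRNAs made one after another from a transcript leave a U there and a distance of 1 nt, before their ends are trimmed. Reads with trimmed ends need not keep these marks, so the values below cannot tell whether the reads were made this way. The base after the end was U in a median of 23.9% of reads, where the transcripts held a median of 25.3% T, and the share was above that of the transcript in 14 of 29 genes. A distance of 1 nt was the most frequent in 2 of the 26 genes with pairs. Over the group, U next to the end was thus about as frequent as T in the transcripts. Gm12462, opposite the transcription factor gene Pax5, was one of the genes above its own composition, with U next in 42.5% (38.6 to 46.5) of reads against 24.1% T. Others lay below theirs, such as Gm21284 with 19.2% (18.8 to 19.5) against 25.4% T and Gm11657 with 9.31% (8.70 to 9.95) against 24.3%.

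A coding gene overlapped on the other strand in 93 of 106 members, by exons in 68 and by span alone in 25. A further 2 started near the start of a coding gene, and 11 had none of these, among them Gm14244, Gm10593 and Gm3892. By class, median log2 ratios were 0.23 with overlapping exons, 0.14 with overlapping spans and 0.13 with none. Where exons overlapped, the share of reads within them varied: of the 68 genes, 30 had under 1% of reads in coding exons of the gene opposite, 19 had at least 50% and 10 at least 90%, with a median of 3.61%. Of the 29 genes with sense reads of 1 place, 26 had a coding gene opposite, and 19 of these had under 1% of reads in its exons. In all 26 the noncoding gene had more reads per kb, strands summed, than the coding gene had sense reads, in both tables. The members were chosen for their reads and the coding genes were not, so this order follows in part from the choice.

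In the 9 genes with antisense reads of 1 place, of which 8 had an overlapping coding gene, the reads came from the other strand by the group's rule. Of these 8, 4 had more reads per kb in both tables than the coding gene had sense reads, and 4 had fewer. Their reads began with U in 85.3% and 85.6%, and they were shorter, with 44.2% and 43.6% of 26 to 28 nt and 39.1% and 38.5% of 29 to 31 nt. In 5 of the 9, at least 90% of reads lay in exons of the coding gene opposite and are also sense reads of that gene. Gm44170 (chr6:88503605-88504277) had 488 and 533 reads, all within exons of Sec61a1, which encodes the protein channel of the endoplasmic reticulum and had 2382 and 2504 sense reads. Gm26588 had 477 and 475, of which 99.8% lay in exons of Mgll, which encodes monoacylglycerol lipase and had 3995 and 4007 sense reads. The ratios of the pairs lay close together: log2 0.08 and 0.13 for Gm44170 and Sec61a1, and 0.21 and 0.20 for Gm26588 and Mgll. Since most of these reads are counted in both genes, these are not separate observations.

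Over the whole list, 10 members had at least 90% of reads in coding exons opposite. Beside the former pair they were 4921516A02Rik in Pdxk, Gm47512 in Tspyl4, Gm12953 in Tmem69, Gm47428 in Ftl1-ps1, Gm17638 in Eif3d, Gm44317 in Erc1, E430024P14Rik in Tagap and Gm49719 in Tagap1. For these the antisense type names the annotation and not the source strand of the reads. Gm20633, Gm20632 and Gm20628 lay opposite histone genes, with 73.6%, 78.7% and 52.7% of reads in exons of Hist2h2aa1, Hist2h2aa2 and Hist2h3b. 1700041B01Rik was the opposite case. Of its 165 and 149 reads 83.8% were sense to it and 86.0% lay in exons of Elfn2, which encodes a membrane protein and had 16380 and 16411 sense reads itself.

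Gm5577 had 1246 and 1177 reads, of which 3.46% were sense, but only 3.24% lay in exons of the linker histone gene H1fx opposite. Its antisense reads therefore came from sequence on the H1fx strand outside the annotated H1fx exons. Gm15579 (ENSMUSG00000086828.1, chr7:143600134-143601299, + strand) starts near Cars, which encodes a cysteinyl-tRNA synthetase, without overlapping it. It had 75 reads (KO-named) and 146 (het-named), the lowest ratio of the members at 0.59 (0.44 to 0.79). Only 17 distinct sequences made up its reads, 96.4% were antisense and 76.0% were 26 to 28 nt. The leading sequence, shown above, had 29 and 47 reads, lower in the KO-named table like the gene. Counting each distinct sequence once gave Gm15579 a log2 ratio of 0.35 instead of -0.75. That value rests on the 17 sequences and is scaled to the distinct sequences of each table. The source of the low ratio was not tested.

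The 33 genes whose reads had several places gave reads of both strands in sum, although 4 of them had at least 90% and 6 at most 10% sense reads. The pooled sense share was 64.4% and 65.9%, the first U share 71.6% and 71.4%, and 55.8% and 57.9% of reads were 29 to 31 nt. Sense reads carried A at position 10 in 62.7% and antisense reads in 34.8%. Gm10593 (chr4:42552478-42587038) and Gm3892 (chr4:42055152-42089708) led the group and could not be told apart: all of their 8546 distinct sequences were shared, and each was given 9677 and 10368 reads, a ratio of 1.08 (1.05 to 1.11). No coding gene lay opposite. Their antisense reads began with U in 84.9% and carried A at position 10 in 21.2%. Their sense reads began with U in 60.0% and carried A at position 10 in 66.5%. First U thus stood higher on the antisense strand, and A at position 10 on the sense strand.

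Pairs of read starts on opposite strands were then counted by their overlap. An overlap of 10 nt was the most frequent among those of 1 to 20 nt, holding 12.8% (KO-named) and 13.1% (het-named) of pairs, where the other overlaps had a median of 4.61% in both and a highest value of 5.6% and 5.65%. In the genes with several places it was 13% and 13.3%. The group without a clear class had 11.8% and 12%. With each pair of positions counted once, whatever its reads, 10 nt was still the most frequent over all members, at 6.51% and 6.45%. Here a pair of sequences with several places is counted at each of them, so these are not all separate pairs. In the genes with antisense reads of 1 place, where pairs were few, 10 nt held 6.6% and 11.5% and an overlap of 20 nt led in the KO-named table. In those with sense reads of 1 place, 10 nt led when weighted by reads (11.6% and 11.2%), but 15 nt led in the KO-named table by positions. The overlaps at 10 nt do not differ between the tables by more than 1 percentage point over all members, in the genes with several places or in those without a clear class.

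An example from Gm28370 (chr12:81492199-81497015, + strand), chosen after its values were seen, shows the pair and a short read beside it. In the first 2 lines the capitals mark the 10 bases by which the reads pair, and both have A at position 10 and U, printed T, at position 1.
Gm28370, sense (chr12:81493640-81493669, + strand): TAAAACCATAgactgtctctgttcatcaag
Gm28370, antisense (chr12:81493620-81493649, - strand): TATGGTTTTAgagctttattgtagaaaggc
Gm28370, antisense, 19 nt (chr12:81493650-81493668, - strand): Ttgatgaacagagacagtc
The sense read had 841 and 701 reads at 4 places, the antisense read 428 and 431 at 5 places, and the 19 nt read 334 and 425 at 6 places. The short read ends 1 nt before the antisense read begins, so both lie end to end on the antisense strand.

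Reads of 19 nt were not used to choose the members and formed a separate peak in the genes with several places and, lower, in those without a clear class. They were 6.75% (KO-named) and 8.81% (het-named) of that group's reads of 18 to 32 nt, against 0.222% and 0.299% in the genes with sense reads of 1 place, 3.30% and 4.52% in the genes without a clear class, and 1.19% and 2.50% of all reads. In Gm10593 they were 9.60% and 12.1%, or 1091 and 1527 reads. Only 31.2% of the group's 19 nt reads began with U. Reads of 24 to 32 nt began directly after the end of a 19 nt read more often than elsewhere: of the starts found from 10 nt before to 30 nt after such an end, 6.82% and 7.12% lay at 1 nt, where the median distance held 2.19% and 2.33%. For reads of 18 nt the share at 1 nt was 4.60% and 4.36%, for 20 nt 4.18% and 4.05%, and for 21 nt 2.95% and 2.91%. In ratio the 19 nt reads of all members were lower in the KO-named table, at 0.83 (0.80 to 0.86), but the tables differed more widely at this length, with a ratio of 0.48 over all reads.

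**Figure D4:**
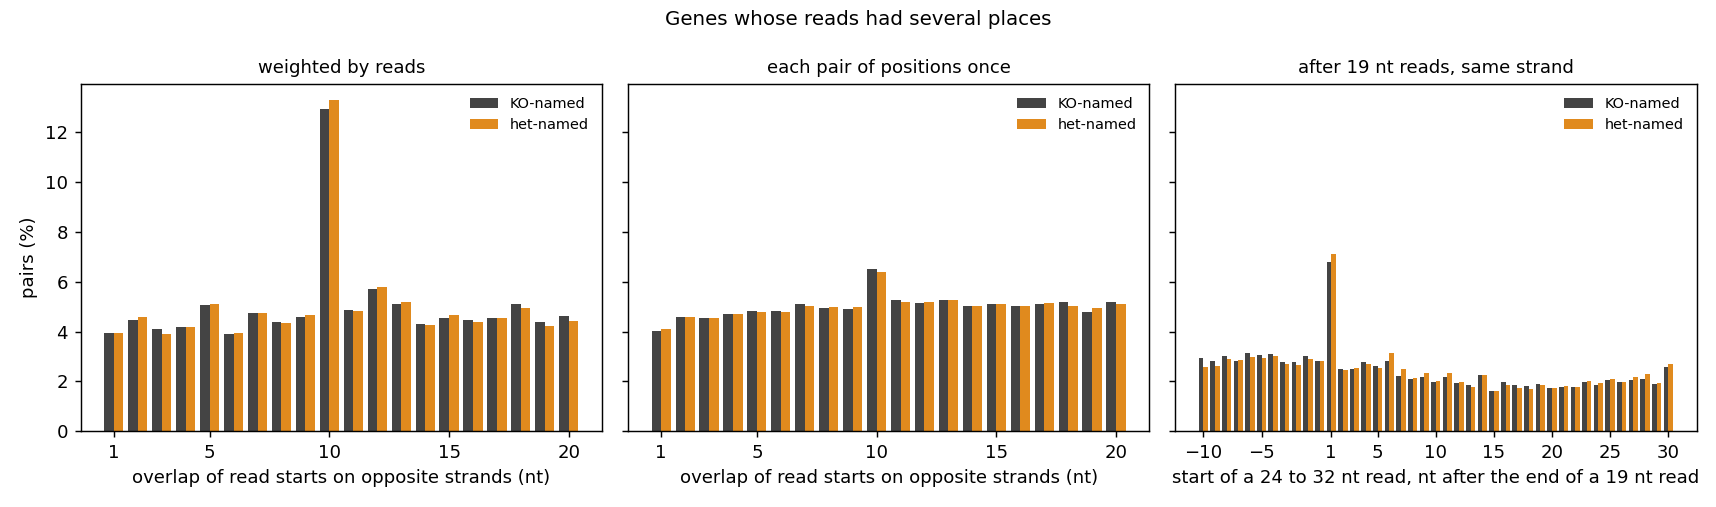
Left and middle, overlap in nt of reads starting on opposite strands (horizontal, 1 to 20) as percent of pairs (vertical) in the 33 genes with several places, weighted by reads and with each pair of positions once. Right, starts of 24 to 32 nt reads around the end of 19 nt reads on the same strand (nt after the end), with the highest bars at 10 nt of overlap (13% and 13.3%) and at 1 nt (6.82% and 7.12%).

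By length, the members' ratio followed that of the tables in direction only in part. For 18 to 23 nt the members had a log2 ratio of -0.12 and the whole tables -0.28. For 24 to 25 nt they had 0.23 where the tables had -0.12, for 26 to 28 nt 0.21 against 0.09, for 29 to 31 nt 0.16 against 0.13 and for 32 nt 0.12 against 0.06. Scaled to all reads, the members were thus higher in the KO-named table at each length class from 24 nt on, most of all at 24 to 28 nt. Scaling to miRNA reads shifts every log2 ratio by -0.25, which puts each of these classes below 0.

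**Figure D5:**
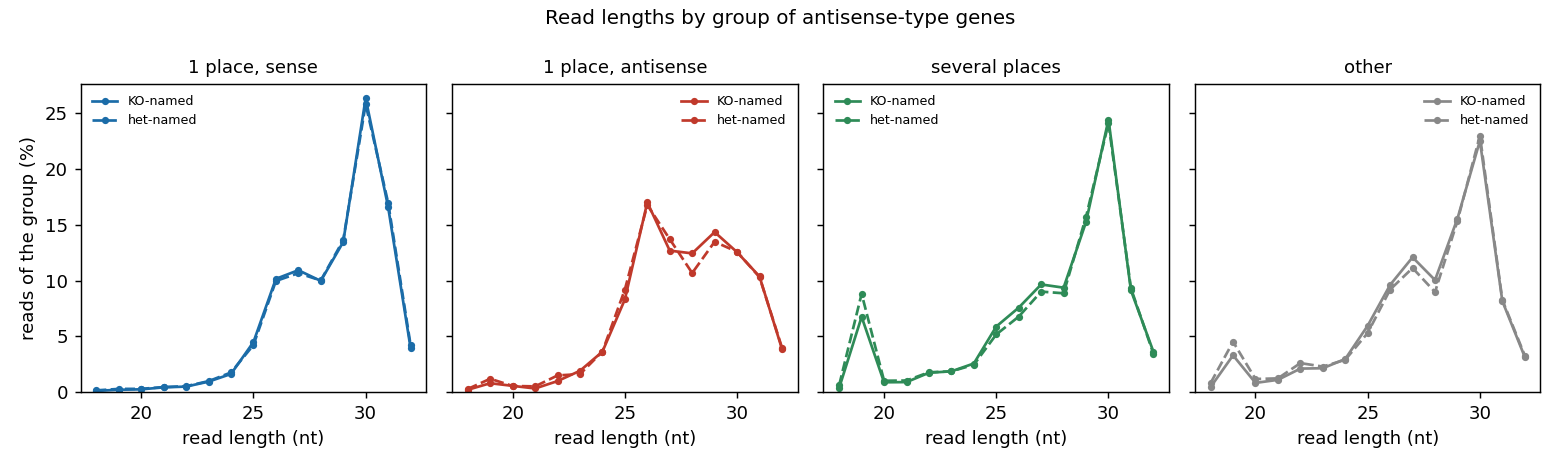
Read lengths of 18 to 32 nt (horizontal) as percent of the group's reads (vertical) in the 4 groups of genes, KO-named solid and het-named dashed. The genes with antisense reads of 1 place peak at 26 nt and the other groups at 30 nt, and the genes with several places have a second peak at 19 nt of 6.75% and 8.81%, as does, at 3.30% and 4.52%, the group without a clear class (other).

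Several members shared their reads with other members and are not separate observations. In 9 sets the members shared at least 50% of their reads with each other. Gm26782, Slc36a1os and 4930481A15Rik, on chromosomes 14, 11 and 19, shared a single 30 nt sequence with 39 places in all, which made up 34.1%, 52.5% and 57.9% of their reads. Their log2 ratios were accordingly close, at 0.18, 0.21 and 0.20. Slc36a1os and 4930481A15Rik gave it on their sense strand, with 98.4% and 99.7% of all their reads sense. Gm48754 and Gm47738, Gm49015 and AC125075.1, and A530040E14Rik and Gm10552 were further pairs. Gm29084, inside the span of the polarity gene Pard3b, gave 3856 and 3735 reads almost evenly from both strands (52.3% sense), all with several places.

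Among the 35 genes without a clear class, sense reads made up 46.1% and 47.2%, and 31 had at least 70% first U. 1700052K11Rik, opposite the kinase gene Tlk2, had 1040 and 1007 reads of which 96.4% had 1 place, and its 88.5% sense reads were under the minimum of the sense group. Gm37912 had 399 and 360 reads, 37.7% sense, and 56.8% of them lay in exons of D1Pas1, a testis-expressed DEAD-box helicase gene. Gm45774 had 120 and 114 reads, of which 82.4% lay in exons of the metallothionein gene Mt2. AU022754, opposite the ligand gene Wnt7b, had 557 and 599.7 reads with 29.7% sense and none in Wnt7b exons. The group thus mixed genes read mainly from their own strand with genes read from the coding strand and genes read from both strands.

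Gm14257 (chr2:155593565-155594475, - strand) was one of the 6 genes with several places and at most 10% sense reads. Of its 916 and 716 reads 1.65% were sense, 96.5% began with U and 72.2% were 26 to 28 nt long. Its ratio was 1.48 (1.34 to 1.63), the highest among members with over 1000 reads in both tables together. The 2 leading sequences, which differ by 1 nt in length, made up 32.2% and 25.6% of its reads at 4 places each. Gm14257 shared 20 sequences with Gm26533 and 20 with Gm45875, in each case 22.1% of its own reads. They made up 72.0% of the Gm26533 reads and 95.5% of the Gm45875 reads. The ratios of these genes are therefore not fully separate observations.

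The 5 highest ratios belonged to Gm26646, E530011L22Rik, Gm26533, Gm44317 and Gm9750. Gm26646, opposite the adaptor complex gene Ap3s2, had 496.5 and 354.8 reads with a ratio of 1.61 (1.41 to 1.86). Its reads peaked at 25 nt, 1.05% were 29 to 31 nt, and a single sequence with 25 places gave 58.2% of them. E530011L22Rik had 187 and 140 reads (ratio 1.54, 1.23 to 1.93), of which 85.1% lay in exons of Nktr on the other strand. Gm26533 had 285 and 215 (1.53, 1.28 to 1.83), of which 72.0% were shared with Gm14257 and 72.7% with Gm45875, whose own ratio was 1.49. Gm44317 had 166 and 128 (1.5, 1.18 to 1.90), all in exons of Erc1, whose sense reads had a log2 ratio of 0.50 beside 0.58. Gm9750 had 116 and 89.4 (1.49, 1.12 to 1.99). All 5 members were small, at under 10 RPM in each table.

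At the other end, Gm15579 stood lowest at a log2 ratio of -0.75, and the next values lay near 0. Gm45765 had 114 and 144 reads (log2 ratio -0.13), Gm49747 192 and 239 (-0.11), 9530026P05Rik 93.6 and 115 (-0.09) and Gm9856 210 and 247 (-0.03), and the intervals of all 4 included a ratio of 1. Kcnq1ot1, the imprinted transcript that lies in Kcnq1, had 734.5 and 858.6 reads (-0.02), of which 27.0% were sense. Measured against all 4552 genes, 2 members lay below the lower 5% of log2 ratios (-0.13) and 8 above the upper 5% (0.50).

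Some members gave reads mostly without the first U of piRNAs, or reads that lay in structured RNA genes. Rab26os had 555 and 511 reads, of which 31.1% began with U and 98.2% lay in the small nucleolar RNA gene Snord60 within it. 2900060B14Rik shared 98.4% of its 460 and 446 reads with the small nuclear RNA gene Gm22710. At least 70% of its reads began with U, and 85.8% were 26 to 28 nt long. For these the reads cannot be told from pieces of the structured RNA. Gm33023, opposite the GTPase gene Rrad, had 150 and 136 reads with 3.32% first U, 98.5% of those with 1 place in the last 25% of its transcript. Gm12395 had 359 and 385 reads with 26.7% first U. Sense reads of both carried A at position 10 often, in 88.0% of Gm33023 and 76.6% of Gm12395 reads, each over few distinct sequences (36 and 103).

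The piRNA pathway genes were looked at as a list of 25, which includes the PIWI proteins, the Tudor proteins that bind them and the enzymes that trim and methylate piRNAs. None had a member on the other strand. With at least 200 reads of their own, strands summed, there were 12, among them Tdrd6 with 188 sense reads. By sense reads, 10 had a log2 ratio above 0, where 86.5% of all 4552 genes did with strands summed. The other 2 lay below 0, where 13.5% of all genes did, and 0 reached 1 in size, against 0.351%. Their median was 0.26, beside 0.20 over all genes. The values ran from -0.43 for Piwil1 (107 and 167 sense reads) to 0.46 for Tex15 (218 and 183). Piwil2 had 963 and 895 sense reads, a log2 ratio of 0.31. These are piRNA-size reads of the mRNAs and not their expression.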

How the data were processed

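Each deposited table lists distinct read sequences with the authors' raw count of reads, without scaling, as the values show. How adapters were trimmed and lengths selected is not given in the sources used here. Reads of 18 to 32 nt were matched with 0 mismatches to both strands of the GENCODE M21 transcripts (bwa 0.7.19) and projected to GRCm38. Matches were sought in transcripts alone, and a place means a distinct read start on them. A read counted 1 over its places, and 102 sequences with over 2000 matches were left out. RPM used all reads of a table, and log2 ratios had 0.5 reads added to each count. Intervals at 95% are Clopper-Pearson for shares and conditional binomial for ratios. Reads placed on simulated data were recovered in 2000 of 2000 cases, and ratio intervals held the true value for 96.0% of genes at a log2 of -1, 95.6% at 0 and 95.0% at 1. As the reads were cut from the same transcripts, this checks the calculation only. Python 3.11.15 was used with scipy 1.17.1, pandas 2.3.3, matplotlib 3.10.9 and numpy 2.4.6.

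The members and lists were chosen with earlier results of these data known. The naming rule took the 20 members with most reads, the 5 highest and 5 lowest ratios and sense shares, and the 3 genes on each side of the minimum. Others are named after their values were seen, as were the 4 groups.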

Additional observations from a re-analysis of the deposited data

How the results depend on the processing

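As reported, the members numbered 106, with a summed log2 ratio of 0.18, 82.5% sense reads, 81.2% first U, 56.6% of 29 to 31 nt and 12.7% of overlaps at 10 nt. Minimums of 50, 100, 500 and 1000 reads gave 312, 174, 53 and 32 members, with 80.5% sense, 80.9% first U and 55.6% of 29 to 31 nt at 50 reads, 84.2% sense and 57.8% of 29 to 31 nt at 500, and 85.7% and 58.5% at 1000. With 1-place reads only there were 62 members, 93.8% sense and 85.7% first U. Reads counted in full at every place gave 403 members, a log2 ratio of 0.13, 58.8% sense, 79.2% first U and 57.2% of 29 to 31 nt. Distinct sequences gave 0.12, 75.3%, 66.0% and 39.5% for the same quantities. Without Gm14244 they were 0.21, 74.9%, 79.7% and 59.3%. Reads of 26 to 31 nt gave 83.5% sense and 81.5% first U, and leaving out reads over coding exons opposite gave 84.6% sense and 57.3% of 29 to 31 nt. Scaled to reads of 24 to 32 nt the summed log2 ratio was 0.0948, and to miRNA reads -0.0720. Each pair of positions counted once, an alternative chosen after seeing the data, gave 6.09% of overlaps at 10 nt. The causes of these shifts were not tested.

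Over the alternatives, none of the 41 named members changed the direction of a called value, since none was called. With 1-place reads only, 100 of all members had reads, of which 8 passed a log2 of 1 in size and 17 lay below 0. The shares of all genes were not counted at this setting, and some of these members had few such reads. Without reads over coding exons opposite, 1 named member passed 1, Gm26588 at 2.53, of whose reads 99.8% lay in such exons. Scaled to miRNA reads, Gm15579 stood at -1.0 and 14 of 41 lay above 0, against 36 with 5 reads added. No paired analysis was possible because each genotype has 1 sample and both tables are listed under the same one. The ratios have no replicate check. Members near the minimum rest on about 100 reads a table, which leaves intervals such as 1.12 to 1.99 for Gm9750, and a count of 0 allows up to 0.055 RPM (KO-named) and 0.048 RPM (het-named). Reads from regions outside annotated transcripts were not used here, so a read with 1 place may have others in the genome.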
